A study of Mus musculus with 48 samples.

Results

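The genes described are 6 of the 24062 in the count table: Spi1, Cebpa, Cebpb, Cebpd, Cebpe and Irf8, the transcription factors that direct granulocyte, monocyte and macrophage development. They were chosen by symbol, and all 6 were found. The study profiled 48 individual cells of mouse fetal liver at embryonic day 14.5, all labelled BFU-E, the early burst-forming progenitor of the red cell lineage. Per the labels, cells bearing CD34, CD41, CD16/CD32, CD3, the myeloid antigens Gr-1 and Mac-1, or Sca-1, B220 or Ter119 had been removed with magnetic beads. Cells with c-Kit were kept, and the 10% lowest in CD71 were sorted and loaded on a microfluidic chip. No strain, animal, litter or batch is named and there is no second condition, so the 48 cells count as 1 sample. Cells are not replicates, no test is possible, and no p-value is given. Shares carry 95% Clopper-Pearson intervals, which treat cells as independent draws and cover only the error of counting cells. No molecular identifiers were used, so several reads can come from 1 molecule, which the intervals do not cover.

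Spi1 encodes PU.1, an ETS-family factor needed for both myeloid and lymphoid development, and Irf8 encodes an interferon regulatory factor that favours monocyte and dendritic fates over granulocytes. The C/EBP proteins are leucine-zipper factors: Cebpa starts the granulocyte-monocyte programme, Cebpe acts late in granulocytes, and Cebpb and Cebpd are known from emergency granulopoiesis, macrophages and inflammation. PU.1 and GATA1, the erythroid master regulator encoded by Gata1, bind and oppose each other, which raises the question of whether a progenitor holds both. Mpo (myeloperoxidase) and Elane (neutrophil elastase) encode proteins of primary granules and are known targets of PU.1 and C/EBP factors, so they served as the readout of the myeloid programme beside Gata1.

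Stretches before the transcription start are shown for Elane and Mpo, whose levels are set against the factors below, and for Irf8 and Cebpa, whose presence in a cell went with low Gata1. The sequences are from RefSeq, whose promoter table matched 6 of 9 symbols looked up (Cebpa, Cebpb, Irf8, Gata1, Mpo and Elane). Each is printed up to the base before the earlier of the RefSeq and GENCODE starts. Capitals mark the PU.1-type letters GAGGAAGT.
Elane, GRCm38.p6 chr10:79886062-79886246, plus strand: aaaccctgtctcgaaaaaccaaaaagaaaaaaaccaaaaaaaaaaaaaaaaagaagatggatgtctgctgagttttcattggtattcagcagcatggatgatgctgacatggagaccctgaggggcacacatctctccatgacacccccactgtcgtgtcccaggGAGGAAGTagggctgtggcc
Mpo, GRCm38.p6 chr11:87793534-87793580, plus strand: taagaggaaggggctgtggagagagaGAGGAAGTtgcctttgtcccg
Irf8, GRCm38.p6 chr8:120736108-120736357, plus strand: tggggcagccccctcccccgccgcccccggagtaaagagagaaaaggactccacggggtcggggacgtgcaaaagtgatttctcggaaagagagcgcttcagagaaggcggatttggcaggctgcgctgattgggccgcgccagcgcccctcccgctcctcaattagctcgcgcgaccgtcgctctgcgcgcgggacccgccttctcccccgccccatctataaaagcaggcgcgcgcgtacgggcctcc
Cebpa, GRCm38.p6 chr7:35119043-35119292, plus strand: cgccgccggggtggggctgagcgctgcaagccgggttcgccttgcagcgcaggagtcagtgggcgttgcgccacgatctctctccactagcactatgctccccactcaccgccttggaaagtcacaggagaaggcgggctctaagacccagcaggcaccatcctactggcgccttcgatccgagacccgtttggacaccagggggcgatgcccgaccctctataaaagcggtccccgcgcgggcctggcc
In the 250 bases before the RefSeq start, searched on both strands, GAGGAAGT occurred once for Elane, 85 bases before the start, and once for Mpo, 224 bases before it. Of 32851 RefSeq promoters of the same length, 2.44% hold these letters. The C/EBP-type letters TTGCNNAA (in 9.56% of promoters), the GATA-type letters GATAAG (6.55%) and an IRF-type pair of GAAA with 2 bases between them (2.98%) had no match in these windows of the 6 genes. The RefSeq start lay 203 bases past the GENCODE start for Mpo and 65 for Elane. Of the 250 bases searched, 47 and 185 lay before the GENCODE start. For Gata1 the 2 starts were 10161 bases apart. The search says nothing of factor binding.

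Each cell had 246007 to 3211186 counts on 5180 to 7935 genes. Levels are CPM, counts scaled to a common total by TMM library size, and 10 CPM was taken as the level that counts as expressed. The BFU-E label was checked against markers: Gata1 reached 10 CPM in 28 of 48 cells, while a k-means split separated 2 cells with macrophage genes. In those 2 cells all 16 genes of a macrophage list were read in at least 1 of the pair and summed to 61887 and 74419 CPM, against 0 to 3244 CPM in the other 46. They also had 343 and 491 CPM of Spi1, so they are given apart and levels and overlaps refer to the 46 other cells unless stated. Among the 46 cells, 1 had Xist at 509 CPM and Y-linked genes at 12.9 CPM together. That cell had C1qb at 338 CPM, 9.06 CPM of Spi1, 0.43 CPM of Irf8 and no C/EBP read. Chip chambers had been inspected by eye for a cell, per the labels, and doublets were not called. Lymphoid list genes summed to at most 4.86 CPM in any of the 46 cells.

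**Figure D1:**
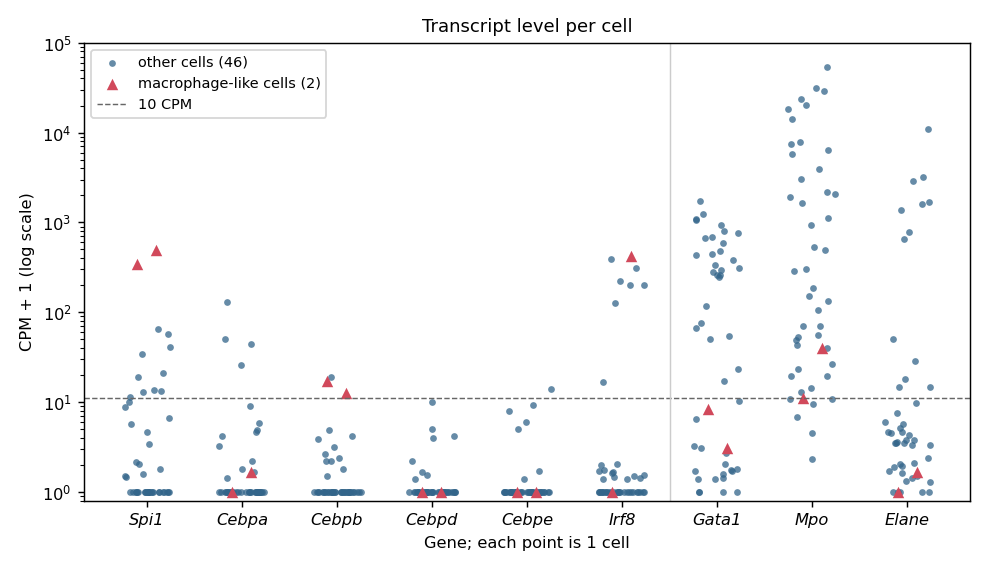
Transcript level of the 6 factors and of Gata1, Mpo and Elane, as CPM + 1 on a log axis; each point is 1 cell, circles are the 46 cells and triangles the 2 macrophage-like cells. Irf8 has a cluster from 126 to 393 CPM above a band near 1 CPM, and the 2 triangles are the highest Spi1 values, at 343 and 491 CPM.

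By any read and at 10 CPM, Spi1 was the factor found in the most cells, while at 100 CPM Irf8 was in 7 of 48 cells and Spi1 in 2. Spi1 (GRCm38 chromosome 2, 91082390 to 91115756, plus strand) had a read in 24 of 48 cells and 10 CPM or more in 12, the 2 macrophage-like cells included (25%, interval 13.6 to 39.6%). In the 46 cells its lowest, median and highest values were 0, 0 and 63.7 CPM, with a mean of 6.90 ± 14.4 CPM (SD over cells, n = 46). The 10 cells at 10 CPM or more had 63.7, 56.7, 40.1, 33.2, 20.2, 18.2, 12.7, 12.4, 12 and 10.4 CPM. No gap set them off from the cells below, which reached 9.06, 7.92 and 5.66 CPM.

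Irf8 was nearly all or none. Irf8 (chromosome 8, 120736358 to 120756694, plus strand) had 393, 308, 220, 202, 201, 126 and 15.8 CPM in 7 of the 46 cells (15.2%, interval 6.34 to 28.9%). The other 39 cells had at most 1.07 CPM, 27 of them no read and 12 a single read or a pair. With 1 of the macrophage-like cells, at 421 CPM, 8 of 48 cells were at 10 CPM or more, and the other macrophage-like cell had no Irf8 read.

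Cebpa was at 10 CPM in fewer cells than Spi1 or Irf8. Cebpa (chromosome 7, 35119293 to 35121928, plus strand) had a read in 14 of the 46 cells and 10 CPM or more in 4 (8.70%, interval 2.42 to 20.8%), at 131, 49.7, 43.8 and 24.8 CPM. The next cell had 8.12 CPM. The macrophage-like cells had 0 and 0.69 CPM, so at 10 CPM the count over 48 cells was also 4.

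The other C/EBP genes stayed near the floor. Cebpb (chromosome 2, 167688915 to 167690418, plus strand) had a read in 11 of the 46 cells and passed 10 CPM in 1 of them, at 18 CPM, and in both macrophage-like cells, at 16.1 and 11.8 CPM. Those 2 cells had low TMM factors, 0.419 and 0.579, which raise their CPM. With CPM by total count, Cebpb was at 10 CPM in 1 of 48 cells, against 3 of 48 by TMM. Cebpd (chromosome 16, 15887286 to 15891031, plus strand) had 38 reads in all, in 8 of 48 cells, and at most 8.99 CPM. It was at 10 CPM in 0 of 48 cells (interval 0 to 7.40%, and up to 6.25% by the limit of 3 counts). Cebpe (chromosome 14, 54710360 to 54712174, minus strand) had 63 reads in all, in 7 of 48 cells, with 12.9 CPM in the highest and 8.41, 6.92, 5.07 and 4.04 CPM in the next. Exons of Cebpb share 312 bases with Tmem189 and those of Cebpd 562 bases with Spidr, both on the opposite strand. The sources used here do not state strand-specific counting, so reads there cannot be told apart, and Spidr had 4247 reads in the table. Mpo likewise shares 512 exon bases with the antisense gene Gm11505.

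On the scale of CPM per kilobase of exon, mean levels in the 46 cells were 4.54 for Irf8, 2.56 for Spi1, 2.30 for Cebpa, 0.674 for Cebpe, 0.533 for Cebpb and 0.128 for Cebpd. The SD over cells exceeded the mean for each of the 6, for example 12.5 for Irf8 and 5.34 for Spi1. This SD describes the spread between cells, not the error of a mean, and the order of the factors was not tested. Gata1 averaged 123 and Elane 515 CPM per kilobase on the same scale. Spearman's rho with the number of genes read ran from −0.09 for Cebpd to 0.31 for Spi1 over the 46 cells, as a description.

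The factors were next set against Gata1, the question being whether myeloid and erythroid regulators were read in the same cell. Gata1 reached 10 CPM in 28 of the 46 cells (60.9%, interval 45.4 to 74.9%). No cell with Irf8 or Cebpa at 10 CPM had Gata1 at that level, whereas Spi1 was found on both sides. With each cell thinned to 246007 counts, 1 of 5 Cebpa cells had Gata1, and with 3 reads as the level 3 of 10 Cebpa cells and 1 of 7 Irf8 cells did. Of 2706 genes at 10 CPM in 4 to 10 of the 46 cells, 2.4% had no such cell with 10 CPM of Gata1. Shares over these 2706 genes pool different numbers of cells and were not matched to the cell number of each factor.

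**Figure D2:**
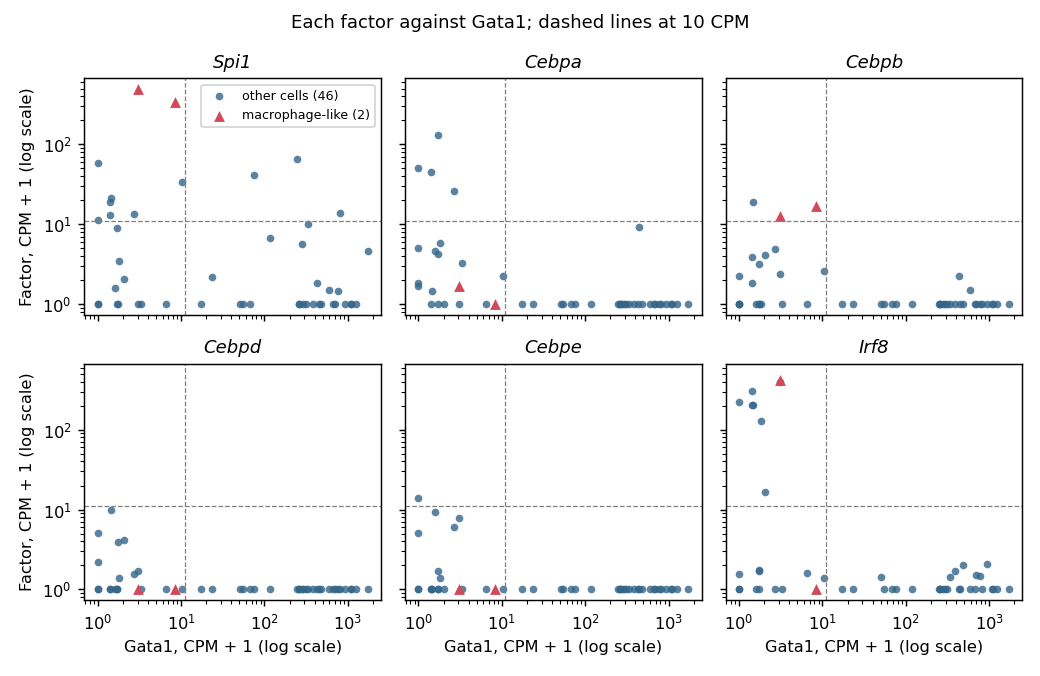
Each factor (vertical) against Gata1 (horizontal) as CPM + 1 on log axes, 1 point per cell, with dashed lines at 10 CPM; triangles are the 2 macrophage-like cells. The upper right field holds 3 cells for Spi1 and 0 for each of the other 5 factors.

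For Irf8, 0 of 7 cells had Gata1 (interval 0 to 41%, and up to 42.9% by the limit of 3 counts), against 28 of 39 cells without Irf8 (71.8%, interval 55.1 to 85%). The 7 Irf8 cells had 0 to 3 reads of Gata1, at most 2.08 CPM. The 28 Gata1 cells held 9 reads of Irf8 in all, at most 1.07 CPM in a cell. Counting any read of both genes in place of 10 CPM, 17 of 19 Irf8 cells also had a Gata1 read, against 25 of 27 without Irf8, and 10 of the 46 cells had only 1 or 2 Gata1 reads.

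For Cebpa, 0 of 4 cells had Gata1 (interval 0 to 60.2%), against 28 of 42 cells without Cebpa (66.7%, interval 50.5 to 80.4%). In the 28 Gata1 cells Cebpa was read in 1, at 8.12 CPM beside 446 CPM of Gata1, and the other 27 had no read of it. In the 18 cells without Gata1 it was read in 13. By any read of both genes, 10 of 14 Cebpa cells had Gata1, against 32 of 32 cells without Cebpa.

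Cebpd and Cebpe, though scarce, were read in no Gata1 cell: 0 of 28, against 8 and 7 of the 18 cells without Gata1. Of 2870 genes with a read in 5 to 15 of the 46 cells, 0.488% had no read in any of the 28 Gata1 cells. That share, too, was not matched to the cell number of each factor. Cebpb was read in 2 of the 28, with 4 reads in all and at most 1.22 CPM, and in 9 of the 18. Total counts had a median of 2074380 in the 28 Gata1 cells and 1659080 in the 18 others, with ranges of 246007 to 3211186 and 507732 to 3061777. The part of depth in these counts was not tested.

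For Spi1, 3 of 10 cells had Gata1 (30.0%, interval 6.67 to 65.2%), against 25 of 36 cells without Spi1 (69.4%, interval 51.9 to 83.7%). Over the 2706 genes the median share of cells with Gata1 was 60%, and 11.5% of genes were at 30% or less. The 3 cells with both had 63.7 CPM of Spi1 beside 245 CPM of Gata1, 40.1 beside 74.1 CPM, and 12.7 beside 811 CPM. None of the 3 had a read of any C/EBP gene or of Irf8. This did not set them apart from other Gata1 cells. Of all 28, Cebpa was read in 1, Cebpb in 2, Irf8 in 7, and Cebpd and Cebpe in 0. They differed in other genes. The first had 162 CPM of Klf1, an erythroid activator, 963 CPM of Car2, the erythroid carbonic anhydrase, and 529 CPM of Mpo. It also had 1401 CPM of Gata2, a progenitor and mast cell regulator, against 200 CPM in the second and 1.06 CPM in the last. The second had 1486 CPM of Car2 and 187 CPM of Mpo, but no Klf1 read and 0.35 CPM of Car1. The last had 1247 CPM of Csf3r, the G-CSF receptor, and 6329 CPM of Mpo, but 0.53 CPM of Car2 and 1.06 CPM of Klf1. It also had 595 CPM of Fcgr3 and 2247 CPM of Cpa3, from a list of mast cell and basophil genes. Cpa3 was at 23.2 CPM in the first and 0.71 CPM in the second. Ms4a2 and Fcer1a, of the same list, had no read in the last cell. Its Gata1 thus stood beside Cpa3 and Mpo, with little Klf1 or Car2. Total counts of the 3 cells, 1927316 to 3149848, lay inside the range of all cells.

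**Figure D3:**
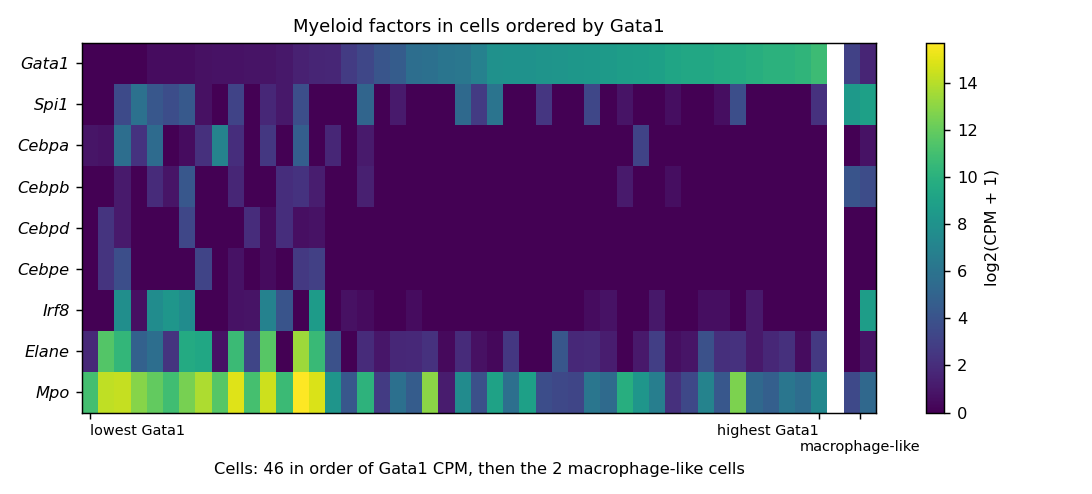
Level of the 6 factors with Gata1, Elane and Mpo, as log2(CPM + 1) in colour; columns are the 46 cells in order of Gata1 and, after the gap, the 2 macrophage-like cells. C/EBP genes and Irf8 stand at the low Gata1 end with high Mpo, while Spi1 also appears further right and in both macrophage-like cells.

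Over the 46 cells Spearman's rho with Gata1 was −0.64 for Cebpa, −0.49 for Cebpd, −0.46 for Cebpe, −0.40 for Cebpb, −0.36 for Irf8 and −0.28 for Spi1. These are descriptions of cells of 1 sample that share chemistry and differ in depth, and many values are 0 (24 cells for Spi1 and 39 for Cebpe). Of 8481 other genes past a filter of a read in 10 cells and a mean of 5 CPM, 5.49% had a rho with Gata1 at or below −0.3 and 5.73% at or above 0.3, and the median was 0.02. Of the 6 factors, 3 passed this filter, Spi1, Cebpa and Irf8. A share of 0.0472% of the genes lay below the value of Cebpa, 3.17% below that of Irf8 and 6.47% below that of Spi1. Cebpa and Irf8 passed the filter on the mean only through cells without Gata1. Their means were 15.0 and 81.6 CPM in those 18 cells, against 0.29 and 0.17 CPM in the 28 Gata1 cells. For Spi1 the means were 9.73 and 5.09 CPM. The filter thus favours a low rho for Cebpa and Irf8, and their shares are no support for a contrast with Gata1.

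**Figure D4:**
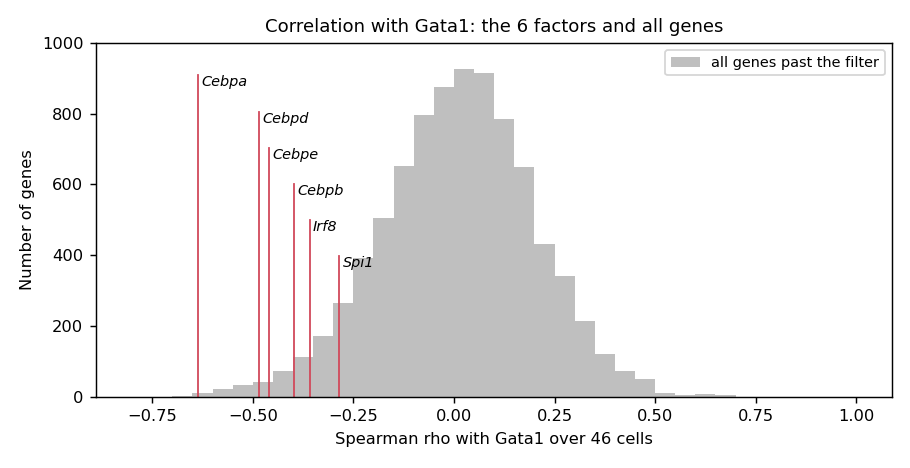
Histogram of Spearman's rho with Gata1 over 46 cells for the genes past the filter (grey bars, number of genes in bins of rho), with vertical lines for the 6 factors. Lines run from −0.64 for Cebpa to −0.28 for Spi1, left of the median of all genes at 0.02.

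Cells with Irf8 or Cebpa all had Mpo above 1000 CPM, and most but not all had Elane. Mpo had a read in all 46 cells, from 1.32 to 53282 CPM, so that 10 CPM separates little (40 cells), and 1000 CPM, a level chosen after the values were seen, was reached in 18. All 7 Irf8 cells and all 4 Cebpa cells were among the 18, as were 8 of 10 Spi1 cells. Of the same 2706 genes, 2.73% had all their cells at 1000 CPM of Mpo. High Mpo was not particular to them: 16 of the 18 cells without Gata1 reached 1000 CPM, among them 5 of the 7 with no factor at 10 CPM. The other Spi1 cells had 529 and 187 CPM of Mpo and were the Gata1 cells with Klf1 or Car2 described above. Only 2 of the 18 cells at 1000 CPM of Mpo had Gata1 at 10 CPM, and neither had a read of a C/EBP gene or of Irf8. Such reads were scarce in Gata1 cells in general, as given above.

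Elane was at 10 CPM in 13 of the 46 cells. It was found in 5 of 7 Irf8 cells (71.4%, interval 29 to 96.3%), against 8 of 39 cells without Irf8 (20.5%, interval 9.30 to 36.5%). Over genes at 10 CPM in 4 to 10 cells, the median share of cells with Elane was 28.6%. In the 7 cells with neither Gata1 nor a factor at 10 CPM, Elane was at the level in 4 (57.1%, interval 18.4 to 90.1%). The 7 Irf8 cells had 3214, 1609, 1361, 790, 49.2, 4.14 and 0 CPM of Elane. The 4 Cebpa cells had 10892, 1361, 49.2 and 0.71 CPM, which puts 3 of 4 at the level, against 10 of 42 cells without Cebpa (23.8%, interval 12.1 to 39.5%). The cell without Elane was the one with the highest Cebpa, 131 CPM, and it had 3025 CPM of Mpo and no read of Spi1 or Irf8. For Spi1 the counts were 5 of 10 cells, against 8 of 36 without it.

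All 7 cells with a Cebpe read had Elane, at 647 to 10892 CPM. This counts any read of Cebpe, and 2 of the 7 cells had only 1 or 2 reads. Cebpe was read in 7 of the 13 cells with Elane at 10 CPM and in 0 of the 33 others. No share over all genes was computed for this count. The cell with the highest Elane and Mpo, 10892 and 53282 CPM, had 24.8 CPM of Cebpa, 12.4 of Spi1 and 5.07 of Cebpe, but no Irf8 read. It also had 688 CPM of Gfi1, a repressor that favours granulocytes over monocytes. The cell with the highest Irf8, 393 CPM, had the next highest Gfi1, 257 CPM.

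**Figure D5:**
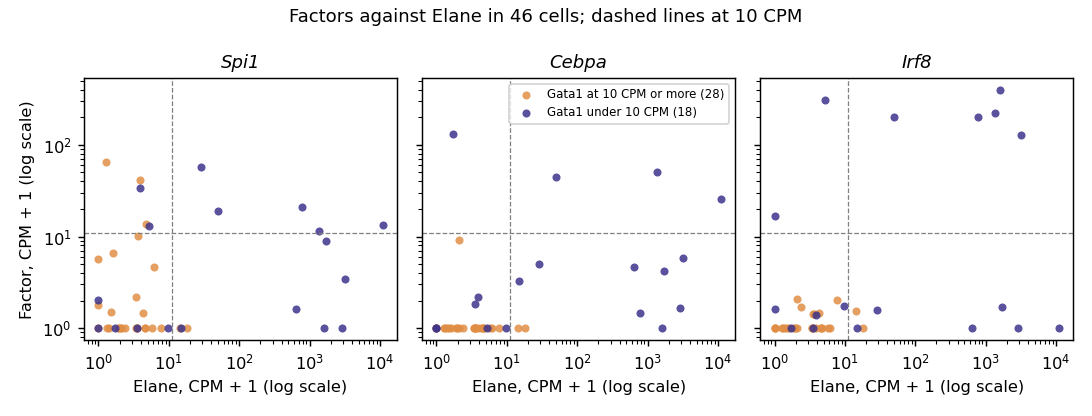
Spi1, Cebpa and Irf8 (vertical) against Elane (horizontal), as CPM + 1 on log axes over the 46 cells; orange points are the 28 cells with Gata1 at 10 CPM or more and purple points the 18 others, and dashed lines mark 10 CPM. Cells with both a factor and Elane at 10 CPM number 5 for Spi1, 3 for Cebpa and 5 for Irf8, and all are purple.

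At 10 CPM, 2 cells had Gata1 and Elane together, 26 Gata1 alone, 11 Elane alone and 7 neither. In the 2 cells with both, Elane was at 17 and 13.6 CPM, and the 6 factors had a single read between them, of Irf8. In the 11 cells with Elane alone, each had a read of at least 1 factor and 7 had a factor at 10 CPM, with medians of 7.92 CPM for Spi1 and 3.61 CPM for Cebpa. In the 7 cells with neither, 4 had a factor at 10 CPM.

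Most cells with a factor at 10 CPM had a single one. Of the 46 cells, 14 had at least 1 factor at 10 CPM: 9 had 1, 2 had 2, 2 had 3 and 1 had 4. The 3 Gata1 cells among them each had Spi1 alone. Spi1 was at 10 CPM in 4 of 7 Irf8 cells and in 3 of 4 Cebpa cells, and Irf8 and Cebpa were together in 2 cells. The cell with 4 factors had 220 CPM of Irf8, 49.7 of Cebpa, 12.9 of Cebpe and 10.4 of Spi1. The cell with the highest Irf8, 393 CPM, had no read of Spi1 or Cebpa. No share over all genes was computed for these counts of factor pairs. Between factors, Spearman's rho was highest for Cebpd with Cebpe, at 0.56, and for Cebpa with Cebpe, at 0.51, and was 0.21 for Spi1 with Irf8 and 0.15 for Cebpa with Irf8. Cebpd and Cebpe did not pass the filter and had no read in 38 and 39 of the 46 cells. The 2 highest values therefore rest on few cells, and Cebpd reads may include Spidr.

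Genes of the sort and of neighbouring fates were compared between the 9 cells with Irf8 or a C/EBP gene at 10 CPM and the 37 others. Cd34 was at 10 CPM in 6 of 9 against 13 of 37, and Fcgr3, which encodes CD16, in 7 of 9 against 11 of 37, although both antigens were selected against as surface protein. Other removed antigens did not show this: Itgam, which encodes a chain of Mac-1, was at 10 CPM in 1 of 9 against 3 of 37. Ly6a, which encodes Sca-1, was at 10 CPM in 1 of 9 against 0 of 37. Kit, the receptor the sort kept, was at 10 CPM in 7 of 9 against 31 of 37. Klf1 was at the level in 0 of 9 against 16 of 37, and Car2 in 2 of 9 against 32 of 37. Gata2, a progenitor and mast cell regulator, was at the level in 4 of 9 against 28 of 37. Flt3, a receptor of early lymphoid and myeloid progenitors, was at the level in 4 of 9 against 3 of 37, and all 4 were Irf8 cells. Prtn3, a granule protease, was at the level in all 9 against 15 of 37. Of a list of 11 secondary granule genes, 5 were read in the 46 cells. Their summed level was 0 to 8003 CPM, with 22 cells at 10 CPM or more. Lyz2, the lysozyme of neutrophils and macrophages, is not particular to later granulocytes. By itself it was at 10 CPM or more in 22 cells, with a read in 40. S100a8, a calcium-binding protein of neutrophils, was at that level in 2 cells, with a read in 13. The other 6 of the list, Ltf, Ngp, Lcn2, Mmp9, Cd177 and Chil3, had no read. The 37 include the 28 Gata1 cells. In the 7 cells with neither Gata1 nor any factor at 10 CPM, Cd34 was at the level in 5, Fcgr3 in 5, Kit in 6, Klf1 in 0, Car2 in 4, Gata2 in 6, Flt3 in 2 and Prtn3 in 6. Itgam was at the level in 3 of these 7 cells and Ly6a in 0. These counts are a description, and the 7 cells without Gata1 or a factor shared with the 9 the presence of Cd34, Fcgr3 and Prtn3 in most cells and the lack of Klf1.

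Gene lists were described by rho over the 46 cells. Of all genes past the filter, those at or above 0.3 made up 5.86% with Cebpa, 4.7% with Irf8 and 5.57% with Spi1. The granule list, not limited to granule proteins, held Mpo, Elane, Prtn3, Ctsg, Ms4a3, Igsf6, Plac8, Hp and Fcnb past the filter. Of these, 7 of 9 passed 0.3 with Cebpa, 8 of 9 with Irf8 and 5 of 9 with Spi1. Median rho was 0.50, 0.35 and 0.32, against 0.00, 0.02 and 0.04 over all genes. The counts include Mpo with all 3 factors and Elane with Cebpa and Irf8, pairs already described above. The filter on the mean bears on list genes too. Elane averaged 1290 CPM in the 18 cells without Gata1 and 3.00 CPM in the 28 Gata1 cells, and Mpo 12194 and 628 CPM. List counts beside the share of all genes are therefore a description and no support for a link with a factor. At or above 0.4 the granule counts were 6 of 9 with Cebpa, 1 of 9 with Irf8 and 1 of 9 with Spi1. Prtn3 had 0.60, 0.42 and 0.35 with Cebpa, Irf8 and Spi1. Among myeloid receptors, 8 of 11 passed with Cebpa, among them Fcgr3 (0.64), Fcgr2b (0.71) and Csf1r, the M-CSF receptor (0.46), against 3 of 11 with Irf8 and 3 of 11 with Spi1. Among monocyte and dendritic genes, 3 of 8 passed with Irf8, namely Ccr2, a monocyte chemokine receptor (0.53), F13a1, a clotting factor subunit of monocytes (0.52), and Ly6c2 (0.51), against 0 of 8 with Cebpa and 1 of 8 with Spi1. At 10 CPM these 3 genes were in 3, 8 and 5 cells.

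On the negative side, genes at or below −0.3 made up 3.89% with Cebpa, 2.03% with Irf8 and 2.12% with Spi1. The limit set by the filter holds here as well: Klf1 averaged 121 CPM in the 28 Gata1 cells and 0.45 CPM in the 18 others. Of 17 erythroid regulators, 5 passed with Cebpa (Gata1, Klf1, Tal1, Gfi1b and Epor), 7 with Irf8 (Gata1, Gata2, Zfpm1, Klf1, Ldb1, Nfe2 and Gfi1b) and 2 with Spi1 (Klf1 and Gfi1b). Gata2 had −0.50 with Irf8 but −0.10 with Cebpa and −0.07 with Spi1. Of 16 erythroid maturation genes, 8 passed with Cebpa, 1 with Irf8 (Car2) and 5 with Spi1, among them Car2 and Rhag. Of 17 other myeloid fate regulators, 3 were at or above 0.3 with Irf8 (Gfi1, Runx1 and Zeb2) and 2 at or below −0.3 (Egr1 and Stat3), against 3 and 1 with Cebpa and 1 and 0 with Spi1. Of the 5 other interferon regulatory factors past the filter, Irf5 had 0.57 with Irf8 and Irf1 0.32 with Cebpa. Neither Cebpg, Cebpz nor Ddit3, of the C/EBP family, reached 0.3 in size with any of the 3 factors.

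The genes with a pattern most like each factor were named by the 6 highest rho among 8481 genes over the 46 cells. For Cebpa they were Fcgr2b (0.71), Anxa3 (0.69), Tyrobp (0.69), Cd52 (0.68), Ebi3 (0.67) and Rab31 (0.66). For Irf8 they were Clec12a (0.59), Dtx4 (0.59), Irf5 (0.57), Fam114a2 (0.57), Spata13 (0.56) and St8sia4 (0.56). For Spi1 they were 9630033F20Rik (0.57), Ndufs1 (0.54), Hspa13 (0.53), Tcp11l2 (0.52), Tfec (0.51) and Atg7 (0.51). The gene of lowest rho with Cebpa was Gata1 (−0.64), followed by Tgfbr3, the type III TGF-beta receptor (−0.61). The value for Gata1 is the one given above, where the filter favours a low rho, so its rank is no support for a contrast.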

How the data were processed

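Read counts per gene, as whole numbers, were deposited for 48 cells. Per the labels' protocols, cDNA was made by SMART-Seq on a Fluidigm C1 chip and libraries by Nextera XT, and 96 libraries were pooled. Per the submitters' processing notes, TopHat2 2.0.12, featureCounts 1.4.6 of Subread and mm10 were used. The deposited log2 table equals log2 of count over DESeq size factor, plus 1, within 1e-06, and served as an alternative. Columns carry run codes matching no sample title, so all cells form 1 sample.

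CPM used TMM library sizes (edgeR 4.0.16, R 4.3.3; factors 0.419 to 1.70); 10 CPM is 4.11 to 34.9 reads, depending on the cell. DESeq2 1.42.0 size factors were an alternative. Macrophage-like cells came from k-means (2 centres, 20 starts) on 10 components of 500 variable genes. Python 3.11.15, scipy 1.17.1, pandas 2.3.3, scikit-learn 1.9.0 and statsmodels 0.14.6 were used. The correlation step was tested on simulated data. Gene positions and exon lengths are from GENCODE M21 for GRCm38, the assembly of mm10. Members and lists were chosen with earlier results of these data known. Named genes were the members, their partners, list genes and, for each factor past the filter, the 6 of highest rho; genes outside these, such as Xist and Tgfbr3, were chosen after their values were seen.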

Additional observations from a re-analysis of the deposited data

How the results depend on the processing

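No paired analysis was possible because there is 1 group. Of 48 alternative values for the share of cells with a factor, 35 lay inside the main interval over 48 cells, and those that did not changed the level that counts as expressed. By any read the share was 50.0% for Spi1, 31.2% for Cebpa, 27.1% for Cebpb, 16.7% for Cebpd, 14.6% for Cebpe and 41.7% for Irf8. By 3 reads it was 20.8% for Cebpa, 18.8% for Cebpb and 8.33% for Cebpd, and by 100 CPM 4.17% for Spi1, 2.08% for Cebpa, 14.6% for Irf8 and 0% for Cebpb and Cebpe. Of 146 alternative values for overlap, 139 lay inside the main interval, which is wide for few cells. By any read Gata1 was in 90.9% of Spi1 cells, 71.4% of Cebpa cells and 89.5% of Irf8 cells, and Elane in 86.4% of Spi1 cells and 100% of Cebpa cells. Elane was in 82.4% of Spi1 cells by 3 reads, and at 100 CPM in 0% of the 1 Cebpa cell. CPM by total count, DESeq2 size factors, thinning to 246007 counts, all 48 cells, leaving out the 5 cells of lowest total and leaving out the 1 cell that had Xist beside Y-linked genes moved no overlap outside its interval. Of 144 alternative correlations, 139 stayed within 0.2 of the main rho. Thinned, Cebpa with Elane had 0.26, Cebpd with Mpo 0.25, Cebpd with Elane 0.17 and Cebpe with Mpo 0.42, and Pearson's r of log2(CPM + 1) gave 0.47 for Cebpb with Elane. No rho at or past 0.3 in size changed sign. At a rho of 0.4, list counts with Spi1 were 0 erythroid regulators, 1 granule gene, 0 myeloid receptors and 0 erythroid maturation genes, those with Cebpa 5 myeloid receptors and 4 erythroid maturation genes, and those with Irf8 2 erythroid regulators, 1 granule gene, 0 myeloid receptors and 0 erythroid maturation genes. The definitions by any read of a factor with 10 CPM of its partner, and by 1000 CPM of Mpo, were chosen after seeing the data. Cebpd had no cell at 10 CPM and so no overlap value. The overlaps rest on 1 to 10 cells for each factor, in 1 sample.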
